A study of Homo sapiens with 9 samples.

Results

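Antisense long non-coding RNAs (lncRNAs) are transcribed from the strand opposite a neighbouring gene, and their symbols carry the name of that gene before the ending -AS and a number. Of 27111 genes counted, 1047 have a symbol of this form, and 419 of them reached at least 20 expected counts in all 3 libraries of at least 1 group. These 419 lncRNAs were chosen by counts measured in these libraries, so their presence in a group is a description, and each was set beside its sense partner, the gene whose symbol precedes -AS. In 307 of them the minimum was met in all 9 libraries, in 55 in 2 groups, and in 57 in 1 group only, which was Empty for 33, NF-YAl for 18 and NF-YAs for 6. A lncRNA that met the minimum in 1 group only is bound to differ in counts between groups to some degree. Those counts are not scaled to depth, which was 25033571 to 27163976 in Empty, 18092007 to 23985635 in NF-YAl and 18076979 to 21533481 in NF-YAs. The part of depth in the split of 33, 18 and 6 was not tested. At the edge of the rule, AZIN1-AS1, STAM-AS1 and GNG12-AS1 were just inside, with a lowest count of 20, 20.05 and 20.25 in their best group, and NAV2-AS2, MEF2C-AS1 and BIRC6-AS2 were just outside, at 19.99, 19.81 and 19.

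The RNA came from PC-3 cells, an established human prostate cancer line grown from a bone metastasis, after lentiviral transduction with an empty pSIN vector (Empty) or with pSIN carrying the murine sequence of 1 of the NF-YA splice isoforms, the long NF-YAl or the short NF-YAs. All 3 groups carry the vector and went through puromycin selection, each group is 1 stably selected population, and each library came from pooled multicellular tumor spheroids (MTSs). There were 3 libraries per group, lettered A, B and C, or A, B and D for NF-YAl, and values are listed in that order. By the study's methods the 3 were separate experiments, and the labels do not say what a letter shares between groups. Library depth was 18076979 to 27163976 expected counts. NFYA, the gene that was over-expressed, was at 89.2, 96.7 and 89.4 CPM in Empty, 287, 383 and 353 CPM in NF-YAl and 264, 263 and 254 CPM in NF-YAs, where CPM are read counts scaled to library size by TMM. Reads were counted on human transcripts, so these values do not separate the murine transgene from endogenous NFYA. They do not measure the degree of over-expression. Among markers of the line, the keratins KRT8 and KRT18 stood at 70.4 to 223 and 212 to 423 TPM (a level scaled for transcript length and depth), EPCAM at 0.61 to 6.68 TPM, and KLK3, the gene of prostate-specific antigen, was listed at 0 in all 9 libraries. Markers of endothelial cells, leukocytes and fibroblasts (CDH5, PTPRC, CD3E, DCN and LUM) stayed at or below 0.54 TPM, and the endothelial gene PECAM1, at 0.46 to 2.74 TPM, is given beside GATA2. TPM of library NF-YAl D ran high, with a median over tested genes of 13.51 against 6.82 to 9.41 in the others, and comparisons between libraries therefore rest on CPM. In bulk RNA, fewer cells that express a gene and less of its RNA per cell cannot be told apart.

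Antisense lncRNAs can share a bidirectional promoter with their partner and be transcribed away from it, or run across the body of the partner and overlap its exons. Some are known to act on the partner in cis, through chromatin, transcription or RNA stability, whereas many have no known function. NF-Y is a trimer that binds the CCAAT box, a motif frequent in promoters, and its NF-YA subunit makes the sequence-specific contact. The library kit keeps strand, but whether strand was used in counting is not given in the sources used here, so that reads from exons shared by a lncRNA and its partner cannot be told apart.

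Of the 419 lncRNAs, 410 were matched to a partner by symbol, for 400 distinct partners, of which 383 passed the filter on low counts. All 419 lncRNAs passed that filter. The other 9 include HOXB-AS3, named for a cluster, and PGM5P3-AS1 and PGM5P4-AS1, named for pseudogenes. GENCODE annotation of GRCh37 placed 392 pairs, all of them on opposite strands. In 206 pairs the genes lay head-to-head, with starts at most 1000 bases apart and pointing away from each other, 178 overlapped in another arrangement and 8 did not overlap. The median distance between starts was 88.5 bases in head-to-head pairs. Exons of both genes overlapped in 249 pairs, by a median of 321 bases. Most lncRNAs, 279 of 419, were counted as a single transcript.

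In level, the lncRNAs lay below their partners. The median of their mean TPM over the 9 libraries was 2.86, with quartiles at 1.3 and 6.11, against 14.2 for the partners. The lncRNA exceeded its partner in mean TPM in 95 of 410 pairs, 34 of them head-to-head and 52 overlapping. UGDH-AS1, head-to-head with the gene of UDP-glucose dehydrogenase, had the highest level, a mean of 681 TPM against 25.4 TPM for UGDH. It stood at 2128, 1176 and 1363 CPM in Empty, 2169, 1499 and 1229 CPM in NF-YAl and 1520.2, 1314 and 1168 CPM in NF-YAs, a spread within groups in which the groups overlapped. It alone held 25354 to 50735 counts per library, so that the summed lncRNAs made up 0.409 to 0.622% of a library's counts with it and 0.293 to 0.396% without it. Next in level were LRRC75A-AS1, a host of small nucleolar RNAs that was counted over 32 transcripts, at 157 TPM, then BFSP2-AS1 at 59.8, LOXL1-AS1 at 56.5, PSMA3-AS1 at 56.5 and PGM5P4-AS1 at 50.3 TPM. Of these 6, PGM5P4-AS1 alone was called in a comparison.

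Genes were called at |log2FC| above 1 with an edgeR adjusted p below 0.01. In NF-YAl against Empty, 8 lncRNAs were up-regulated, 1.91% of 419, where 4.76% of all tested genes were, and 11 were down-regulated, 2.63%, beside 3.5% of all genes. In NF-YAs against Empty, 7 were up-regulated, 1.67% beside 5.44% of all genes, and 24 were down-regulated, 5.73% beside 3.9%. Between the over-expressing lines, 11 were higher in NF-YAl, 2.63% beside 1.74%, and 7 were lower in NF-YAl, 1.67% beside 2.86%. In all, 48 of the 419 were called at least once. Both lines shared 2 up-regulated lncRNAs, FEZF1-AS1 and PSMG3-AS1, and 6 down-regulated ones, PGM5P3-AS1, PGM5P4-AS1, SLC2A1-AS1, SLCO4A1-AS1, ST3GAL4-AS1 and ZNF295-AS1, while 0 were called in opposite directions, with the same Empty libraries in both comparisons. The rule itself bears on these counts, since 8, 13 and 9 of the called lncRNAs in the 3 comparisons missed the minimum in at least 1 group. MELTF-AS1 and RNF217-AS1 met it in NF-YAl alone, B3GALT5-AS1 and SERTAD4-AS1 in NF-YAs alone, and PSG8-AS1, MRPL23-AS1 and PCED1B-AS1 in Empty alone. These 7 belong to the set only through the group where they are high, so their differences are described without a test, although they stand in the counts. The other called lncRNAs that missed the minimum did so in 1 group, such as MNX1-AS1 in NF-YAl and PKIA-AS1 in Empty. In NF-YAs, those that missed it include GATA2-AS1, MAFA-AS1, SLC2A1-AS1, ST3GAL4-AS1, RAPGEF4-AS1, ZMIZ1-AS1 and PGM5P3-AS1. Each of these was chosen through the 2 groups that reached it. Their adjusted p values, wherever printed below, are therefore not independent of that choice. Among the 307 that met it in all 9 libraries, 5 rose and 6 fell in NF-YAl, 5 rose and 13 fell in NF-YAs, and 4 were higher and 5 lower in NF-YAl than in NF-YAs. The shares over all tested genes to set beside these counts of 307 are those above, such as 3.9% down in NF-YAs.

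The counts also moved with single libraries. The 8 up-regulated in NF-YAl became 5 without Empty A, NF-YAl A or NF-YAl B and 3 without Empty B or Empty C, and the 11 down-regulated became 7 without Empty B or NF-YAl B and 5 without Empty C. The 24 down-regulated in NF-YAs became 15 without Empty A or NF-YAs B and 13 without NF-YAs C. The 11 higher in NF-YAl than in NF-YAs became 6, 3 and 2 without NF-YAs A, B and C. Each of these fits has 1 library fewer in a group of 3.

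**Figure D1:**
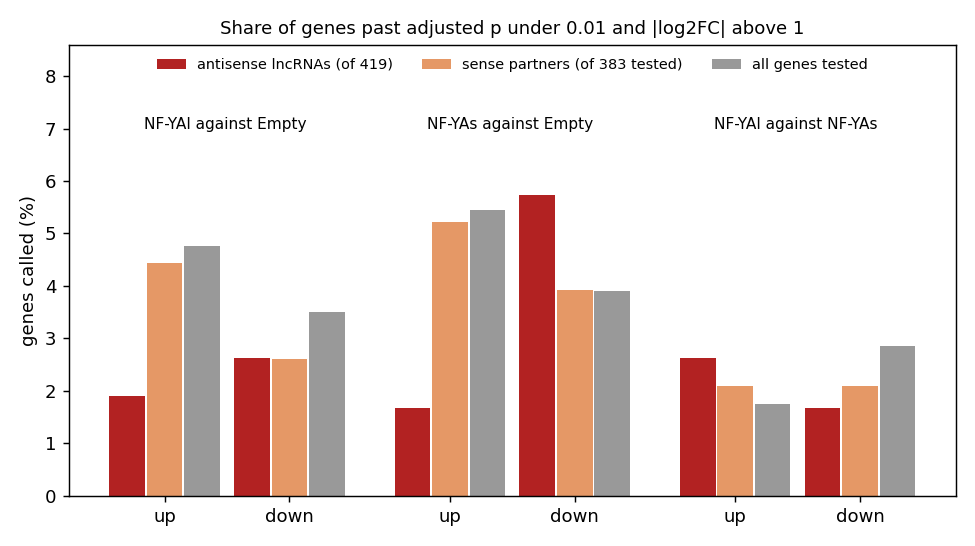
Share of genes called (y axis, percent) among the 419 antisense lncRNAs, the 383 tested sense partners and all tested genes, for each comparison and direction (x axis). The lncRNAs stand below all genes among up-regulated genes of both lines and above them among down-regulated genes of NF-YAs, at 5.73% beside 3.9%. Of the 24 lncRNAs in that 5.73%, 13 are among the 307 that met the count minimum in all 9 libraries. The higher share thus rests in part on lncRNAs that missed the minimum in a group.

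Beyond the called genes, the lncRNAs as a list sat lower in NF-YAs. Their median log2FC in NF-YAs against Empty was -0.25, while that of all tested genes was -0.0026 and that of the partners 0.04. In NF-YAl against Empty it was 0.02, beside 0.01 for all genes and 0.01 for the partners, and in NF-YAl against NF-YAs it was 0.26, beside 0.02 and -0.02. A log2FC below 0 in NF-YAs was found for 281 lncRNAs, 67.1% beside 50.3% of all genes. With only the 307 lncRNAs that met the minimum in all 9 libraries, the median in NF-YAs was -0.21. Library by library, the median of log2(CPM over the mean CPM in Empty) was -0.21, -0.23 and -0.26 in NF-YAs, 0.16, -0.07 and -0.12 in NF-YAl, and 0.07, -0.10 and 0.0033 in Empty. The NF-YAs libraries were the lowest 3 of the 9, whereas NF-YAl and Empty overlapped.

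**Figure D2:**
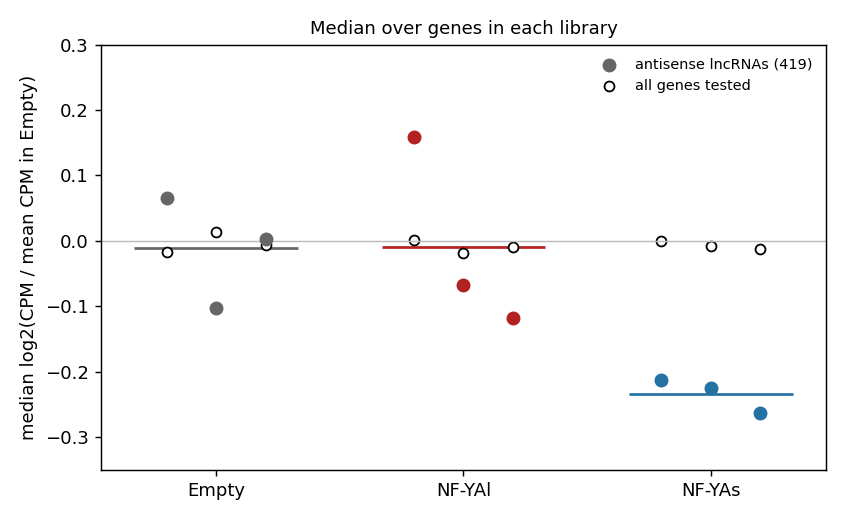
Median over genes of log2(CPM in the library divided by mean CPM in Empty, each plus 0.1; y axis) for each library of the 3 groups (x axis), filled for the 419 antisense lncRNAs and open for all tested genes, with a line at each group mean. The 3 NF-YAs points of the lncRNAs lie between -0.21 and -0.26, below the other 6 libraries, while the points of all genes stay near 0.

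Other classes of non-coding names had a median of the same sign in NF-YAs. It was -0.27 for 361 LINC genes, -0.20 for 26 intronic transcripts (-IT), -0.17 for 14 genes ending in -AS without a number, and -0.18 for 3 overlapping transcripts (-OT). In NF-YAl against Empty the same medians were 0.01, -0.02, 0.08 and 0.18. Nuclear RNA decay factors, such as subunits of the exosome that degrades antisense and promoter transcripts, gave 0 calls by edgeR and 0, 0 and 0 by DESeq2 among 32 tested in each comparison, although 11, 12 and 6 of them had an unadjusted p under 0.05, and their log2FC in NF-YAs ran from -0.89 to 0.68. At an adjusted p under 0.01 and any fold there were 6, 8 and 2 of them, where 19.6, 22.6 and 11% of all tested genes passed. Genes that sense or edit double-stranded RNA gave 0 calls by edgeR and 0, 0 and 0 by DESeq2 among 18, with 12, 14 and 7 at an unadjusted p under 0.05. At an adjusted p under 0.01 and any fold there were 8, 8 and 0 of the 18, beside the same 19.6, 22.6 and 11% of all tested genes. The log2FC over this list ran from -0.76 to 0.95 in NF-YAl and from -0.69 to 0.73 in NF-YAs. Whether either process has a part in the lower medians was not tested.

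Of the 383 tested sense partners, 17 were up and 10 down in NF-YAl, 20 up and 15 down in NF-YAs, and 8 higher and 8 lower in NF-YAl than in NF-YAs, shares of 4.44, 2.61, 5.22, 3.92, 2.09 and 2.09% in that order. Both genes of a pair were called in 5 of the 393 pairs tested in NF-YAl, 10 in NF-YAs and 3 between the lines. In each of these the 2 genes moved in the same direction, and 0 pairs were called in opposite directions in any comparison. The 5 pairs of NF-YAl were FEZF1, PKIA, MELTF and SEMA3F, up-regulated, and SLCO4A1, down-regulated. The 10 of NF-YAs were FEZF1, SERTAD4 and B3GALT5, up-regulated, and GATA2, MAFA, SLC2A1, SLCO4A1, SSTR5, TIPARP and RAPGEF4, down-regulated, of which 8 lie head-to-head. The lncRNAs of MELTF, SERTAD4 and B3GALT5 are among those that met the count minimum in 1 group alone. Exons did not overlap in 1, 4 and 1 of these pairs. The pairs both called became 3 and 2 in NF-YAl without Empty B and C, and 6 in NF-YAs without Empty C, NF-YAs A or NF-YAs B. TIPARP and the RAPGEF4 pair were named after their values were seen, to complete these sets.

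GATA2 encodes a zinc-finger transcription factor of blood and endothelial development. GATA2-AS1 (chr3:128208055-128221813 of GRCh37, plus strand) starts 178 bases from GATA2 and shares 78 exonic bases with it. Its level was 4.19, 4.93 and 4.45 CPM in Empty, 4.61, 5.07 and 4.81 CPM in NF-YAl and 0.754, 0.199 and 0.829 CPM in NF-YAs. The NF-YAs libraries lay far below the other 6, and Empty and NF-YAl overlapped. GATA2-AS1 fell in NF-YAs against Empty (edgeR log2FC -2.91 ± 0.33, adjusted p = 3.8e-05) and was higher in NF-YAl than in NF-YAs (edgeR log2FC 3.01 ± 0.33, adjusted p = 8.9e-05), whereas against Empty it had a log2FC of 0.10 in NF-YAl. GATA2 itself was at 18.4, 27 and 19.9 CPM in Empty, 66.6, 53.4 and 34.3 CPM in NF-YAl and 6.89, 3.18 and 7.83 CPM in NF-YAs, so that the 3 groups did not overlap. It fell in NF-YAs (edgeR log2FC -1.86 ± 0.31, adjusted p = 5.7e-04) and rose in NF-YAl (edgeR log2FC 1.24 ± 0.28, adjusted p = 0.005), although leaving out Empty A, Empty C, NF-YAl A or NF-YAl B ended the call (log2FC 1.01 to 1.21, adjusted p 0.0103 to 0.0272). PECAM1, an adhesion molecule of endothelial cells, was at 5.49, 6.0 and 7.32 CPM in Empty, 5.94, 4.83 and 5.96 CPM in NF-YAl and 1.94, 1.59 and 2.12 CPM in NF-YAs. In NF-YAl, where GATA2 rose, PECAM1 overlapped with Empty (edgeR log2FC -0.17, adjusted p = 0.52). It fell in NF-YAs (edgeR log2FC -1.73 ± 0.2, adjusted p = 4.8e-05) and was higher in NF-YAl than in NF-YAs (1.56 ± 0.2, adjusted p = 3.0e-04), whereas CDH5, the other endothelial marker, had at most 11 counts in a library and was not tested. The spheroids were plated from PC-3 cells, and the relation of PECAM1 to this pair was not tested. The ratio of GATA2-AS1 to GATA2 on the log2 TPM scale, with 0.1 TPM added, was -1.64 ± 0.17 (SD, n = 3) in Empty and -2.48 ± 0.11 (SD, n = 3) in NF-YAs, and these did not overlap (exact two-sided permutation p = 0.1, the smallest that 3 against 3 libraries can give). That difference of -0.84 depends on the added value, and with 1 TPM added it turned to 0.08. The window from 250 bases before to 50 after the GATA2-AS1 start, from RefSeq on GRCh38.p14 (chr3:128488953-128489252, plus strand), is shown because GATA2-AS1 had the lowest log2FC of the 419 lncRNAs in NF-YAs; capitals mark CCAAT or its complement ATTGG, here 80 bases before the start.
GATA2-AS1: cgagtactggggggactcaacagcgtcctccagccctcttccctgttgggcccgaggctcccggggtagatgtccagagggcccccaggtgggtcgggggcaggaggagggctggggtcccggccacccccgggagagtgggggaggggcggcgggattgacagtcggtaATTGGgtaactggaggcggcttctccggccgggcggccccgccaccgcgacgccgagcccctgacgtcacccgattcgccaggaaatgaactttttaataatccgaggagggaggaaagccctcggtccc

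FEZF1 encodes a zinc-finger repressor of forebrain and olfactory development. FEZF1-AS1 (chr7:121943712-121950173 of GRCh37, plus strand) lies head-to-head with it and was at 1.72, 1.63 and 1.5 CPM in Empty, 4.14, 5.23 and 5.79 CPM in NF-YAl and 6.68, 7.32 and 7.14 CPM in NF-YAs. Every library of both over-expressing lines lay above every Empty library. The lncRNA rose in NF-YAl (edgeR log2FC 1.65 ± 0.19, adjusted p = 5.5e-05) and in NF-YAs (edgeR log2FC 2.12 ± 0.19, adjusted p = 7.7e-06). FEZF1 was at 0.0839, 0.159 and 0.157 CPM in Empty, 0.424, 0.981 and 1.27 CPM in NF-YAl and 1.94, 1.59 and 2.17 CPM in NF-YAs, with 2 to 4 counts in each Empty library. It rose in both lines too (edgeR log2FC 2.71 ± 0.49, adjusted p = 0.0012 in NF-YAl and edgeR log2FC 3.77 ± 0.46, adjusted p = 6.5e-05 in NF-YAs). FEZF1-AS1 exceeded FEZF1 in TPM in all 9 libraries, but the log2 ratio was 2.25 ± 0.37 (SD, n = 3) in Empty and 1.44 ± 0.22 in NF-YAs, without overlap (exact two-sided permutation p = 0.1). This difference of -0.81 turned to 0.33 with 1 TPM added in place of 0.1. The genes share 782 exonic bases, over which reads cannot be told apart. The FEZF1 window (RefSeq, GRCh38.p14, chr7:122304701-122305000, minus strand) is given as the pair that rose in both lines, with the motif 83 bases before and 29 bases after the start.
FEZF1: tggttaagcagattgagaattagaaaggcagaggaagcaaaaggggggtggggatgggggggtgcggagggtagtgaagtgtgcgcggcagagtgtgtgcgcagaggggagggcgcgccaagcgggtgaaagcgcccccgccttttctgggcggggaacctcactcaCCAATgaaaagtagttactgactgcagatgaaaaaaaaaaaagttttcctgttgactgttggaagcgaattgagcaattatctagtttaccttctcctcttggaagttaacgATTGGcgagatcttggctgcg

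B3GALT5, a galactosyltransferase that builds type 1 carbohydrate chains, and SERTAD4 rose in NF-YAs, where their lncRNAs were highest too. B3GALT5-AS1 (chr21:40969074-40984837 of GRCh37, minus strand) starts 30 bases from B3GALT5 and was at 0.294, 0.437 and 0.551 CPM in Empty, 0.318, 0.123 and 0.329 CPM in NF-YAl and 1.72, 1.69 and 1.94 CPM in NF-YAs. NF-YAs stood above the other groups, which overlapped. It met the count minimum in NF-YAs alone, with at most 14 counts in an Empty and 8 in an NF-YAl library. Its difference was log2FC 2.04 ± 0.34 in NF-YAs against Empty and log2FC -2.79 ± 0.38 in NF-YAl against NF-YAs, as a description. B3GALT5 was at 3.82, 2.86 and 3.15 CPM in Empty, 1.59, 2.41 and 1.27 CPM in NF-YAl and 9.53, 9.01 and 10.1 CPM in NF-YAs, with NF-YAs highest, NF-YAl lowest and no overlap between the 3 groups (edgeR log2FC 1.54 ± 0.22, adjusted p = 1.9e-04 in NF-YAs against Empty). The window of B3GALT5-AS1 (RefSeq, GRCh38.p14, chr21:39612773-39613072, minus strand) is shown for contrast, as a start without CCAAT or ATTGG in these 300 bases.
B3GALT5-AS1: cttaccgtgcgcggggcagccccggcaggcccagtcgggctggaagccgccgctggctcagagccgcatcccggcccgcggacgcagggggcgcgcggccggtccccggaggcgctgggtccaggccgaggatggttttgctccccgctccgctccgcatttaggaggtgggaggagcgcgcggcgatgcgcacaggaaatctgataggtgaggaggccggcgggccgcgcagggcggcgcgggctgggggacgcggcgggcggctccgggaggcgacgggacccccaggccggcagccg

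SERTAD4-AS1 was at 0.294, 0.636 and 0.394 CPM in Empty, 0.159, 0.695 and 0.657 CPM in NF-YAl and 1.67, 1.69 and 1.8 CPM in NF-YAs, no more than 39 counts in any library, and SERTAD4 was at 0.671, 0.676 and 0.787 CPM in Empty, 0.265, 0.981 and 1.03 CPM in NF-YAl and 4.09, 3.93 and 3.27 CPM in NF-YAs. For both genes NF-YAs lay above the other groups and NF-YAl overlapped with Empty. SERTAD4 rose in NF-YAs (edgeR log2FC 2.39 ± 0.35, adjusted p = 2.5e-04). The lncRNA met the count minimum in NF-YAs alone, with at most 16 counts in an Empty and 17 in an NF-YAl library, and its difference there, log2FC 1.95 ± 0.42, is a description.

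SLC2A1 encodes GLUT1, the glucose transporter of most proliferating cells. SLC2A1-AS1 (chr1:43424720-43462485 of GRCh37, plus strand) starts 156 bases from it with no shared exonic base. It was at 3.77, 4.21 and 4.96 CPM in Empty, 1.7, 1.88 and 2.09 CPM in NF-YAl and 1.18, 1.34 and 0.829 CPM in NF-YAs, 3 groups without overlap. SLC2A1-AS1 fell in NF-YAl (edgeR log2FC -1.18 ± 0.23, adjusted p = 0.0018) and in NF-YAs (edgeR log2FC -1.95 ± 0.24, adjusted p = 7.8e-05), and for NF-YAl leaving out Empty C ended the call (log2FC -1.07, adjusted p 0.0128). It missed the count minimum in NF-YAs, so these adjusted p values are not independent of its choice. SLC2A1, at 268, 318 and 306 CPM in Empty, 147, 183 and 189 CPM in NF-YAl and 102, 101 and 100.1 CPM in NF-YAs, showed the same order. SLC2A1 fell in NF-YAs (edgeR log2FC -1.56 ± 0.11, adjusted p = 1.8e-06), and in NF-YAl its log2FC of -0.78 ± 0.11 did not reach the limit on fold change (edgeR adjusted p = 2.4e-04). The window of SLC2A1-AS1 (RefSeq, GRCh38.p14, chr1:42958799-42959098, plus strand) is shown because the windows of both genes overlap and hold the same CCAAT box, 138 bases before the start of the lncRNA.
SLC2A1-AS1: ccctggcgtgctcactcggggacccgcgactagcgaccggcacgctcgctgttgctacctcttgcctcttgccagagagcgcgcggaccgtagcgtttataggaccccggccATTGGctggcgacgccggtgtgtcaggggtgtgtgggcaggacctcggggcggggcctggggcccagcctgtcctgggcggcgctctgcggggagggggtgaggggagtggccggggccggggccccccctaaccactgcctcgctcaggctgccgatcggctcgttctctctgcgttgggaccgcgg

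SLCO4A1, an organic anion transporter that carries thyroid hormone, and SLCO4A1-AS1 fell in both lines. SLCO4A1-AS1 was at 16.8, 13.5 and 12.8 CPM in Empty, 2.92, 4.09 and 4.64 CPM in NF-YAl and 5.17, 3.88 and 4.56 CPM in NF-YAs and SLCO4A1 at 533, 642 and 580.4 CPM in Empty, 121, 203 and 240.3 CPM in NF-YAl and 255, 213 and 238 CPM in NF-YAs. Both over-expressing lines lay below Empty for each gene and overlapped with each other. The log2FC of the lncRNA was -1.88 in NF-YAl and -1.66 in NF-YAs (edgeR adjusted p = 2.8e-05 and 5.2e-05), and that of SLCO4A1 -1.64 and -1.32 (adjusted p = 7.7e-05 and 2.9e-04). The log2 TPM ratio of the lncRNA to the gene was -4.30 ± 0.32 (SD, n = 3) in Empty and -4.48 ± 0.19 in NF-YAl, a difference within the spread (exact two-sided permutation p = 0.5).

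SSTR5 encodes a somatostatin receptor. SSTR5-AS1, head-to-head with no shared exonic base, was at 39.2, 28.6 and 31.4 CPM in Empty, 41.8, 21.3 and 16.3 CPM in NF-YAl and 10.1, 10.003 and 7.7 CPM in NF-YAs, and SSTR5 at 12.7, 13.7 and 12.2 CPM in Empty, 12.8, 8.38 and 8.5 CPM in NF-YAl and 5.06, 4.68 and 5.02 CPM in NF-YAs. NF-YAs was the lowest group for both, while the NF-YAl libraries spread over a wide range that overlapped with Empty. Both fell in NF-YAs against Empty (edgeR log2FC -1.84 ± 0.29, adjusted p = 4.4e-04, and edgeR log2FC -1.39 ± 0.18, adjusted p = 9.2e-05 for SSTR5). They were higher in NF-YAl than in NF-YAs (edgeR log2FC 1.51 ± 0.29, adjusted p = 0.0033, and edgeR log2FC 1.001 ± 0.18, adjusted p = 0.0021 for SSTR5), with that of SSTR5 at the limit of the fold. With only these groups in the fit, neither was called (adjusted p = 0.0125 for the lncRNA and 0.0111 for SSTR5). For the lncRNA leaving out NF-YAs A, NF-YAs B or NF-YAs C ended the call (log2FC 1.39 to 1.57, adjusted p 0.0131 to 0.0214), and for SSTR5 leaving out NF-YAl A, NF-YAs B or NF-YAs C ended the call (log2FC 0.78 to 1.02, adjusted p 0.00201 to 0.0139).

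TIPARP, a mono-ADP-ribosyltransferase induced by the aryl hydrocarbon receptor, and TIPARP-AS1 share a head-to-head start with no shared exonic base. TIPARP-AS1 was at 5.12, 4.17 and 5.75 CPM in Empty, 4.14, 4.17 and 3.25 CPM in NF-YAl and 2.05, 1.89 and 2.9 CPM in NF-YAs, and TIPARP at 156, 143 and 160.2 CPM in Empty, 193, 124 and 148 CPM in NF-YAl and 78.7, 64 and 79.5 CPM in NF-YAs. NF-YAs was the lowest group for TIPARP-AS1, while NF-YAl and Empty met at 4.17 CPM, and for TIPARP NF-YAl overlapped with Empty. Both fell in NF-YAs (edgeR log2FC -1.13 ± 0.22, adjusted p = 0.0021, and edgeR log2FC -1.05 ± 0.15, adjusted p = 2.0e-04 for TIPARP). For the lncRNA leaving out Empty C, NF-YAs A or NF-YAs B ended the call (log2FC -1.01 to -1.05, adjusted p 0.0127 to 0.0137), and for TIPARP leaving out NF-YAs B ended the call (log2FC -0.95, adjusted p 0.00184). RAPGEF4, an exchange factor for Rap proteins that responds to cAMP, and RAPGEF4-AS1 had a log2FC of -1.14 and -1.16 in NF-YAs (edgeR adjusted p = 0.0072 and 0.0069), with the lncRNA at 1.89, 2.26 and 2.24 CPM in Empty and 1.08, 1.05 and 0.737 CPM in NF-YAs. For RAPGEF4 leaving out Empty A, Empty B, Empty C, NF-YAl B, NF-YAs A or NF-YAs B ended the call (log2FC -0.93 to -1.24, adjusted p 0.0114 to 0.0358), and for RAPGEF4-AS1 leaving out Empty A, Empty B, Empty C, NF-YAl B, NF-YAs A, NF-YAs B or NF-YAs C ended the call (log2FC -1.01 to -1.25, adjusted p 0.0109 to 0.0383). MAFA, a transcription factor of insulin-producing beta cells, and MAFA-AS1, which starts 12219 bases from it, were both low in level. MAFA-AS1 was at 1.3, 0.954 and 1.22 CPM in Empty, 1.8, 1.23 and 0.904 CPM in NF-YAl and 0.377, 0.299 and 0.461 CPM in NF-YAs and fell in NF-YAs (edgeR log2FC -1.59 ± 0.37, adjusted p = 0.0051), as MAFA did (edgeR log2FC -1.81 ± 0.34, adjusted p = 0.0016). For MAFA-AS1 leaving out Empty A, Empty C, NF-YAs A, NF-YAs B or NF-YAs C ended the call (log2FC -1.44 to -1.77, adjusted p 0.0139 to 0.0265).

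**Figure D3:**
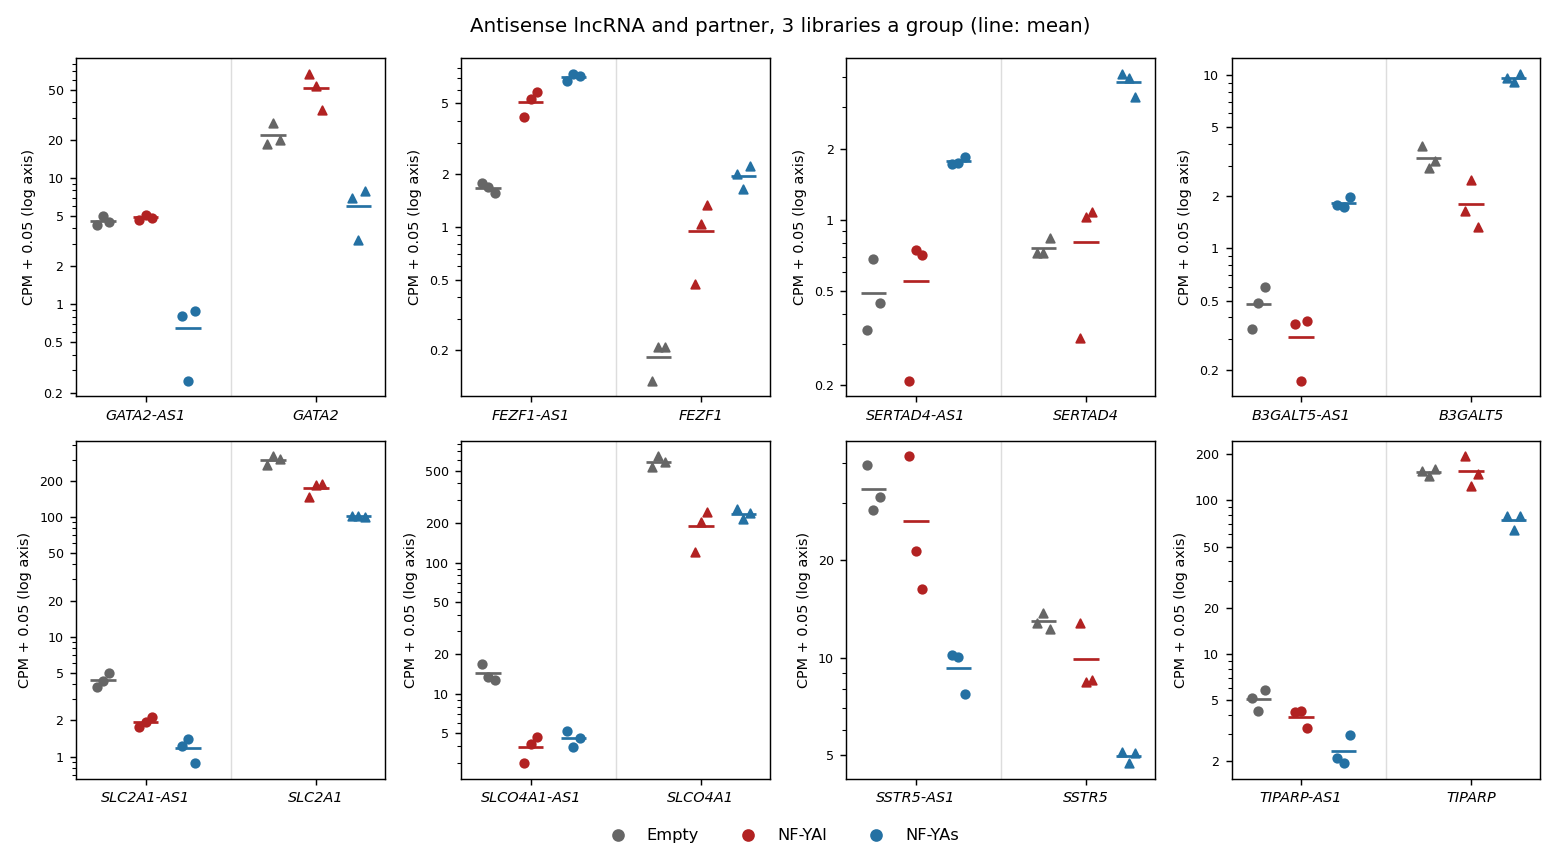
CPM plus 0.05 on a log axis (y) in each library for 8 antisense lncRNAs (circles) and their partners (triangles), by group colour, with a line at the group mean. In each panel the lncRNA and its partner move the same way in at least 1 over-expressing line, as for GATA2-AS1 and GATA2, whose NF-YAs libraries are the lowest.

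In NF-YAl, both genes were higher in 3 further pairs. SEMA3F, a secreted semaphorin that acts as a repellent guidance cue, was at 44, 45.1 and 38.5 CPM in Empty, 156, 127 and 129 CPM in NF-YAl and 98.6, 96.4 and 90.1 CPM in NF-YAs, and SEMA3F-AS1 at 8.22, 7.59 and 7.36 CPM in Empty, 18.8, 15.8 and 12.9 CPM in NF-YAl and 9.86, 12.4 and 11.8 CPM in NF-YAs. Every library of both lines lay above Empty for both genes. SEMA3F rose in NF-YAl (edgeR log2FC 1.69 ± 0.11, adjusted p = 9.4e-07) and in NF-YAs (edgeR log2FC 1.16 ± 0.11, adjusted p = 1.0e-05), and SEMA3F-AS1 rose in NF-YAl (edgeR log2FC 1.03 ± 0.16, adjusted p = 4.1e-04), where leaving out Empty C or NF-YAl A ended the call (log2FC 0.90 to 1, adjusted p 0.000559 to 0.00365). PKIA, an inhibitor of protein kinase A, rose in both lines (edgeR log2FC 1.64 ± 0.13, adjusted p = 3.8e-06 in NF-YAl and edgeR log2FC 1.06 ± 0.13, adjusted p = 7.1e-05 in NF-YAs), although in NF-YAs leaving out NF-YAs A ended the call (log2FC 0.96, adjusted p 0.000527). PKIA-AS1, which overlaps PKIA but shares no exonic base with it, was at 1.01, 0.715 and 0.827 CPM in Empty, 3.18, 2.54 and 2.05 CPM in NF-YAl and 2.05, 1.24 and 1.01 CPM in NF-YAs and rose in NF-YAl (edgeR log2FC 1.6 ± 0.31, adjusted p = 0.002), where leaving out Empty B or Empty C ended the call (log2FC 1.49 to 1.58, adjusted p 0.0117 to 0.0128). MELTF, the iron-binding melanotransferrin, rose in NF-YAl (edgeR log2FC 1.41 ± 0.22, adjusted p = 5.0e-04) and in NF-YAs (edgeR log2FC 2.05 ± 0.22, adjusted p = 3.1e-05). MELTF-AS1 was at 0.713, 0.795 and 0.708 CPM in Empty, 1.54, 1.64 and 2.26 CPM in NF-YAl and 0.862, 1.19 and 0.783 CPM in NF-YAs and met the count minimum in NF-YAl alone, with 17 to 20 counts in Empty. Its difference there, log2FC 1.29 ± 0.28, is a description. In NF-YAs its log2FC was 0.35, beside 2.05 for MELTF, whose levels there were higher still than in NF-YAl.

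In other pairs the lncRNA was called and its partner was not, 10 of 393 tested pairs in NF-YAl, 17 in NF-YAs and 13 between the lines. Over all tested genes, 4.76% were called up and 3.5% down in NF-YAl, 5.44 and 3.9% in NF-YAs, and 1.74 and 2.86% between the lines. With such shares most genes are not called, so a called gene beside an uncalled one is not by itself a trait of these pairs. MRPL23-AS1, which overlaps the gene of a mitochondrial ribosomal protein, was at 2.39, 2.11 and 2.16 CPM in Empty, 1.75, 1.31 and 0.657 CPM in NF-YAl and 0.323, 0.547 and 0.415 CPM in NF-YAs. The groups did not overlap, with NF-YAs lowest. It met the count minimum in Empty alone, and its difference in NF-YAs against Empty was log2FC -2.35 ± 0.37, as a description, whereas MRPL23 had a log2FC of -0.37 (adjusted p = 0.097). ST3GAL4-AS1, which starts 53 bases from a sialyltransferase gene, was at 3.06, 3.7 and 3.42 CPM in Empty, 1.7, 1.55 and 1.6 CPM in NF-YAl and 0.862, 1.05 and 1.34 CPM in NF-YAs and fell in both lines (edgeR log2FC -1.07 ± 0.22, adjusted p = 0.0031 in NF-YAl and edgeR log2FC -1.64 ± 0.23, adjusted p = 2.1e-04 in NF-YAs), while ST3GAL4 had a log2FC of -0.19 and -0.23. PSMG3-AS1, head-to-head with a proteasome assembly chaperone, was at 7.09, 6.68 and 5.75 CPM in Empty, 16.1, 14.7 and 9.24 CPM in NF-YAl and 12.4, 14.8 and 17.2 CPM in NF-YAs. Both lines lay above Empty. It rose in NF-YAl (edgeR log2FC 1.03 ± 0.21, adjusted p = 0.0024) and in NF-YAs (edgeR log2FC 1.19 ± 0.21, adjusted p = 8.2e-04), PSMG3 having a log2FC of -0.03 and 0.49. In NF-YAl leaving out Empty B, Empty C, NF-YAl A or NF-YAl B ended the call (log2FC 0.88 to 1.05, adjusted p 0.00489 to 0.0157), and an offset for effective length took its log2FC to 0.94.

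Several lncRNAs moved in 1 line only by the test, which does not by itself show that the lines differ. APCDD1L-AS1 fell in NF-YAl (edgeR log2FC -1.51 ± 0.18, adjusted p = 7.5e-05) from 10.7, 11.2 and 13.6 CPM in Empty to 2.97, 4.83 and 4.6, and stood at 13.4, 12.4 and 13.4 in NF-YAs, where it overlapped with Empty. The direct comparison called it lower in NF-YAl than in NF-YAs (edgeR log2FC -1.65 ± 0.18, adjusted p = 9.7e-05). APCDD1L, 20 bases away, had a log2FC of -0.73 in NF-YAl. PSMB8-AS1, head-to-head with an immunoproteasome subunit, fell in NF-YAl (edgeR log2FC -1.51 ± 0.28, adjusted p = 0.0016) from 3.69, 3.3 and 4.01 to 1.49, 0.941 and 1.44 CPM, with PSMB8 at a log2FC of -0.77. RNF217-AS1, beside the gene of a ubiquitin ligase, was at 0.839, 0.596 and 1.3 CPM in Empty, 2.23, 2.09 and 3.2 CPM in NF-YAl and 0.592, 0.846 and 0.691 CPM in NF-YAs and met the count minimum in NF-YAl alone. The differences, log2FC 1.46 ± 0.31 against Empty and log2FC 1.81 ± 0.33 against NF-YAs, are a description. SOX21-AS1, beside the gene of a SOX transcription factor, rose in NF-YAl (edgeR log2FC 1.08 ± 0.23, adjusted p = 0.0039) from 1.51, 2.11 and 2.48 to 3.77, 4.5 and 4.64 CPM, although leaving out Empty A, Empty B or NF-YAl B ended the call (log2FC 0.92 to 1.11, adjusted p 0.0148 to 0.0169). SOX21 had a log2FC of 0.81. PSG8-AS1, which met the minimum in Empty alone, was at 1.93, 1.95 and 1.53 CPM there and at 0.637, 0.368 and 0.78 CPM in NF-YAl (log2FC -1.6 ± 0.34, as a description).

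MNX1-AS1 lies head-to-head with MNX1, a homeobox gene of motor neurons and pancreas, with no shared exonic base. It was at 1.43, 1.51 and 1.65 CPM in Empty, 0.53, 0.532 and 0.123 CPM in NF-YAl and 1.29, 1.05 and 0.922 CPM in NF-YAs, with NF-YAl below the other groups at 3 to 13 counts. MNX1-AS1 fell in NF-YAl (edgeR log2FC -1.96 ± 0.40, adjusted p = 0.0028), and leaving out Empty B or Empty C ended the call (log2FC -1.91 to -1.97, adjusted p 0.0105 to 0.0135). MNX1 had a log2FC of -1.28 ± 0.40 (edgeR adjusted p = 0.028), with overlapping groups. The windows of the 2 genes overlap and share both motifs of the MNX1-AS1 window (RefSeq, GRCh38.p14, chr7:157010607-157010906, plus strand), at 147 and 102 bases before the start of the lncRNA.
MNX1-AS1: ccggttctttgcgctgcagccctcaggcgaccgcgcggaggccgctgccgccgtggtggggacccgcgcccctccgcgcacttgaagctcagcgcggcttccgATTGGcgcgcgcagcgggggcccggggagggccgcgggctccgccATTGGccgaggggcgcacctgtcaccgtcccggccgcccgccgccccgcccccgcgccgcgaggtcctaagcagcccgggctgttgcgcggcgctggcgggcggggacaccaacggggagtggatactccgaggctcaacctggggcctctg

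In NF-YAs, HOXB-AS3, from the cluster of HOXB homeobox genes, was at 2.06, 2.03 and 1.77 CPM in Empty, 2.28, 1.76 and 1.07 CPM in NF-YAl and 5.28, 5.37 and 5.62 CPM in NF-YAs, with NF-YAs above the other groups. It rose against Empty (edgeR log2FC 1.47 ± 0.24, adjusted p = 6.0e-04) and was lower in NF-YAl than in NF-YAs (edgeR log2FC -1.68 ± 0.25, adjusted p = 7.0e-04). Of its 8 counted transcripts, NR_110329.1 held 69.7 ± 0.62% of the gene's TPM in Empty (SD, n = 3), 37.05 ± 24.5% in NF-YAl, where libraries ran from 13.6 to 62.6%, and 59.3 ± 2.52% in NF-YAs. ATP6V1B1-AS1, inside the span of a proton pump subunit, was at 0.839, 0.874 and 0.905 CPM in Empty, 1.22, 0.941 and 1.52 CPM in NF-YAl and 2.96, 3.23 and 2.63 CPM in NF-YAs and rose in NF-YAs (edgeR log2FC 1.74 ± 0.25, adjusted p = 2.2e-04), with ATP6V1B1 at a log2FC of -0.55. Between the lines, FUT8-AS1, head-to-head with the core fucosyltransferase gene, was lower in NF-YAl (edgeR log2FC -1.45 ± 0.19, adjusted p = 3.8e-04), at 9.81, 10.1 and 10.9 CPM in Empty, 4.08, 4.83 and 7.43 CPM in NF-YAl and 14.5, 16.3 and 14 CPM in NF-YAs. NF-YAl was the lowest and NF-YAs the highest group. FUT8 was lower too, with a log2FC of -0.82 ± 0.13 (adjusted p = 8.6e-04), which did not reach the limit on fold change, and the genes share 824 exonic bases. SH3PXD2A-AS1, in the span of the gene of the invadopodium scaffold TKS5, was lower in NF-YAl than in NF-YAs as well (edgeR log2FC -1.62 ± 0.28, adjusted p = 0.0018). HAS2-AS1, antisense to a hyaluronan synthase gene, was at 2.02, 2.58 and 1.77 CPM in NF-YAl, below the 4.36, 5.57 and 4.61 CPM of NF-YAs (edgeR log2FC -1.19 ± 0.22, adjusted p = 0.0028), although leaving out NF-YAs B or NF-YAs C ended the call (log2FC -1.08 to -1.23, adjusted p 0.0116 to 0.0178). ZMIZ1-AS1 was higher in NF-YAl than in NF-YAs (edgeR log2FC 1.77 ± 0.33, adjusted p = 0.0029), with 3.93, 2.41 and 2.46 against 1.13, 0.746 and 0.691 CPM, but leaving out NF-YAs B or NF-YAs C ended the call (log2FC 1.64 to 1.68, adjusted p 0.0183 to 0.0196).

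PGM5-AS1, PGM5P3-AS1 and PGM5P4-AS1 lie at near-identical copies between which counting can split reads, so that the value of each is uncertain. PGM5P3-AS1 was at 5.83, 5.36 and 7.36 CPM in Empty, 1.91, 2.21 and 3.49 CPM in NF-YAl and 0.97, 1.29 and 0.922 CPM in NF-YAs and PGM5P4-AS1 at 30.2, 38 and 37.5 CPM in Empty, 9.92, 12.6 and 24.6 CPM in NF-YAl and 8.99, 7.91 and 7.004 CPM in NF-YAs. In both, NF-YAs was lowest and Empty highest without overlap. Both fell in NF-YAs (edgeR log2FC -2.54 ± 0.28, adjusted p = 3.0e-05 and edgeR log2FC -2.15 ± 0.27, adjusted p = 9.6e-05) and in NF-YAl (log2FC -1.28 and -1.16). In NF-YAl, for PGM5P3-AS1 leaving out Empty C or NF-YAl B ended the call (log2FC -1.13 to -1.18, adjusted p 0.0117 to 0.0138), and for PGM5P4-AS1 leaving out Empty A, Empty B, Empty C, NF-YAl A or NF-YAl B ended the call (log2FC -0.92 to -1.25, adjusted p 0.00663 to 0.026). PGM5-AS1 fell in NF-YAs (edgeR log2FC -1.55 ± 0.32, adjusted p = 0.0027), and leaving out Empty A, Empty C, NF-YAs B or NF-YAs C ended the call (log2FC -1.31 to -1.57, adjusted p 0.0115 to 0.0149). ZNF295-AS1, whose partner was not analysed here, fell in both lines (edgeR log2FC -1.35 ± 0.20, adjusted p = 3.7e-04 in NF-YAl and edgeR log2FC -1.52 ± 0.21, adjusted p = 1.6e-04 in NF-YAs).

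The opposite case, a called partner beside a lncRNA that was not called, occurred in 23 of the 393 tested pairs in NF-YAl, 26 in NF-YAs and 15 between the lines. The same limit holds for these counts, since most of all tested genes were not called. By rule, LOXL1, an enzyme that cross-links elastin, belongs here, having fallen in NF-YAs (edgeR log2FC -1.37 ± 0.15, adjusted p = 3.5e-05) beside LOXL1-AS1 at a log2FC of -0.67 ± 0.11 (adjusted p = 6.9e-04). The next 6 pairs were chosen after their values were seen for the wide gap between lncRNA and partner. PTPRG, a receptor tyrosine phosphatase, was at 0.377, 0.874 and 0.157 CPM in Empty, 20.8, 22.8 and 16.8 CPM in NF-YAl and 23.6, 10.4 and 29 CPM in NF-YAs. Both lines stood apart from Empty, and PTPRG rose in each (edgeR log2FC 5.4 ± 0.47, adjusted p = 8.1e-06 and edgeR log2FC 5.47 ± 0.47, adjusted p = 6.4e-06). PTPRG-AS1, which shares 1343 exonic bases with it, was at 9.69, 6.0 and 6.49 CPM in Empty, 9.6, 6.5 and 7.07 CPM in NF-YAl and 7.002, 6.52 and 6.96 CPM in NF-YAs. The groups of the lncRNA overlapped in every comparison. LEMD1, which encodes a LEM-domain protein known as a cancer-testis antigen, was at 0.755, 0.596 and 0.59 CPM in Empty and at 0 or 1 count in each library of both lines, at least 4.79-fold lower in NF-YAl and at least 4.32-fold lower in NF-YAs against a floor of 3 counts per library. LEMD1-AS1 was at 1.22, 1.07 and 1.1 CPM in Empty, 0.955, 1.02 and 1.27 CPM in NF-YAl and 1.02, 1.05 and 0.829 CPM in NF-YAs, with log2FC of -0.05 and -0.23.

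TTN, the giant muscle protein titin, was at 1937, 1873 and 1979 CPM in Empty, 296, 438 and 344 CPM in NF-YAl and 490.4, 372 and 381 CPM in NF-YAs. Both lines stood apart from Empty, and TTN fell in each (edgeR log2FC -2.42 ± 0.16, adjusted p = 1.0e-06 and edgeR log2FC -2.22 ± 0.16, adjusted p = 1.6e-06). TTN-AS1 shares 14004 exonic bases with TTN and was at 7.38, 8.15 and 9.45 CPM in Empty, 7.002, 9.08 and 7.97 CPM in NF-YAl and 11.2, 11.3 and 12.3 CPM in NF-YAs, with log2FC of -0.05 and 0.48. The lncRNA was highest in NF-YAs, where it did not overlap with Empty, and was called in neither line. SDCBP2, a PDZ-domain protein known as syntenin-2, fell in both lines (log2FC -2.5 and -2.26, edgeR adjusted p = 1.1e-04 and 1.8e-04), while SDCBP2-AS1 was at 33.2, 32.8 and 29.4 CPM in Empty, 30.2, 30.6 and 27.4 CPM in NF-YAl and 33.6, 34.4 and 27.7 CPM in NF-YAs in overlapping groups. FRY and DLGAP1, a scaffold protein of synapses, were low, at no more than 34 counts in a library, and rose in NF-YAs (edgeR log2FC 3.37 ± 0.50, adjusted p = 2.8e-04, and edgeR log2FC 1.86 ± 0.36, adjusted p = 0.0017 for DLGAP1). For DLGAP1 leaving out Empty C or NF-YAs C ended the call (log2FC 1.56 to 1.73, adjusted p 0.0106 to 0.0114). FRY-AS1, which starts 84 bases from FRY, had a log2FC of -0.25, and DLGAP1-AS1 one of -0.94 (adjusted p = 0.01). As ratios of TPM with 0.1 added, PTPRG-AS1 to PTPRG went from 4.28 ± 0.77 (log2, SD, n = 3) in Empty to 0.004 ± 0.36 in NF-YAl, and TTN-AS1 to TTN from -3.01 ± 0.14 to -0.76 ± 0.15, without overlap in either. PTPRG was low in Empty, so the size of its ratio there depends on the value added.

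**Figure D4:**
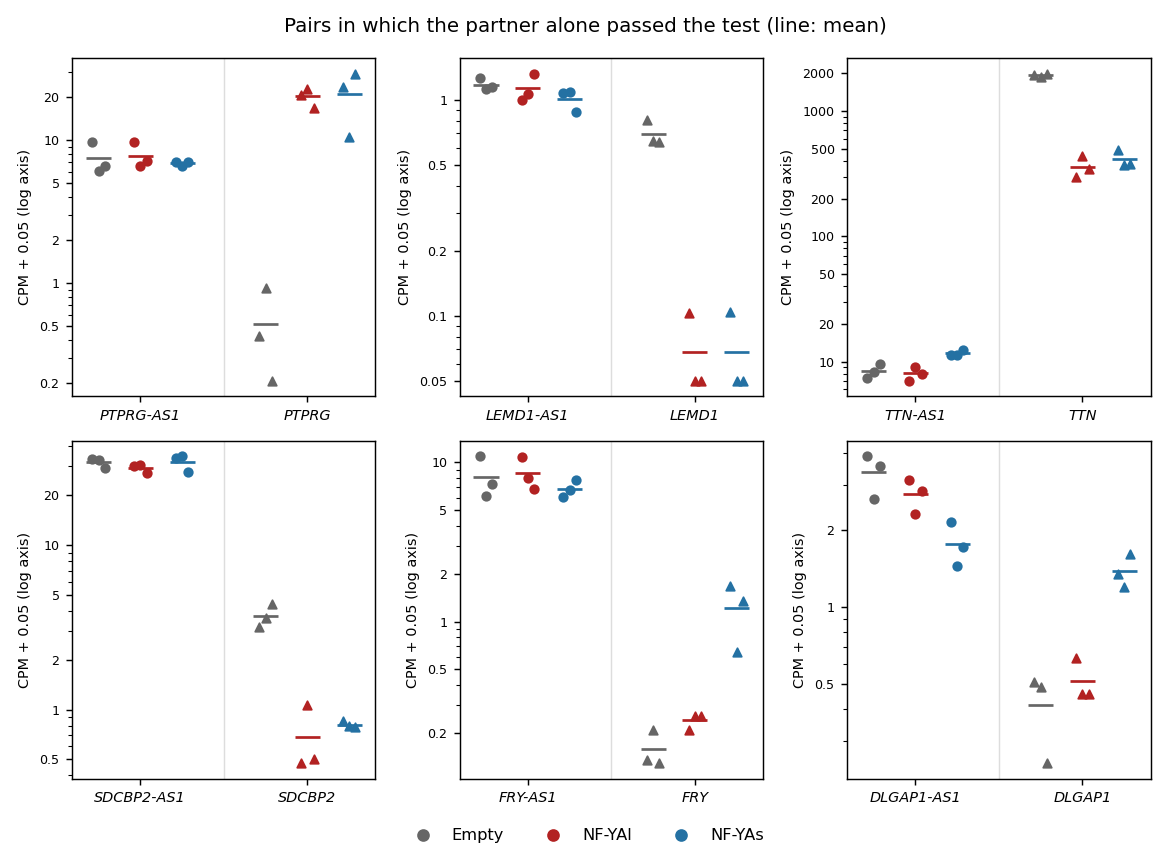
CPM plus 0.05 on a log axis (y) in each library for 6 antisense lncRNAs (circles) and their partners (triangles), by group colour, with a line at the group mean. The partner separates at least 1 over-expressing line from Empty, as TTN does with a mean of 1929.6 CPM in Empty and 359 CPM in NF-YAl, while the lncRNA was not called.

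Over all pairs with both genes tested, the log2FC of lncRNA and partner shared a sign in 264 of 393 pairs in NF-YAl (67.2%), 250 in NF-YAs (63.6%) and 228 between the lines (58.0%). Pearson's r across pairs was 0.46, 0.42 and 0.49, and Spearman's rho 0.49, 0.46 and 0.38. These describe genes measured in the same libraries, which are not independent replicates. In the 202 head-to-head pairs r was 0.57, 0.58 and 0.61, and in the 166 overlapping pairs 0.40, 0.26 and 0.36. Restricted to pairs that share no exonic base, r was 0.49, 0.54 and 0.53 in 77 head-to-head pairs and 0.43, 0.12 and 0.28 in 50 overlapping ones. The difference between arrangements was not tested.

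**Figure D5:**
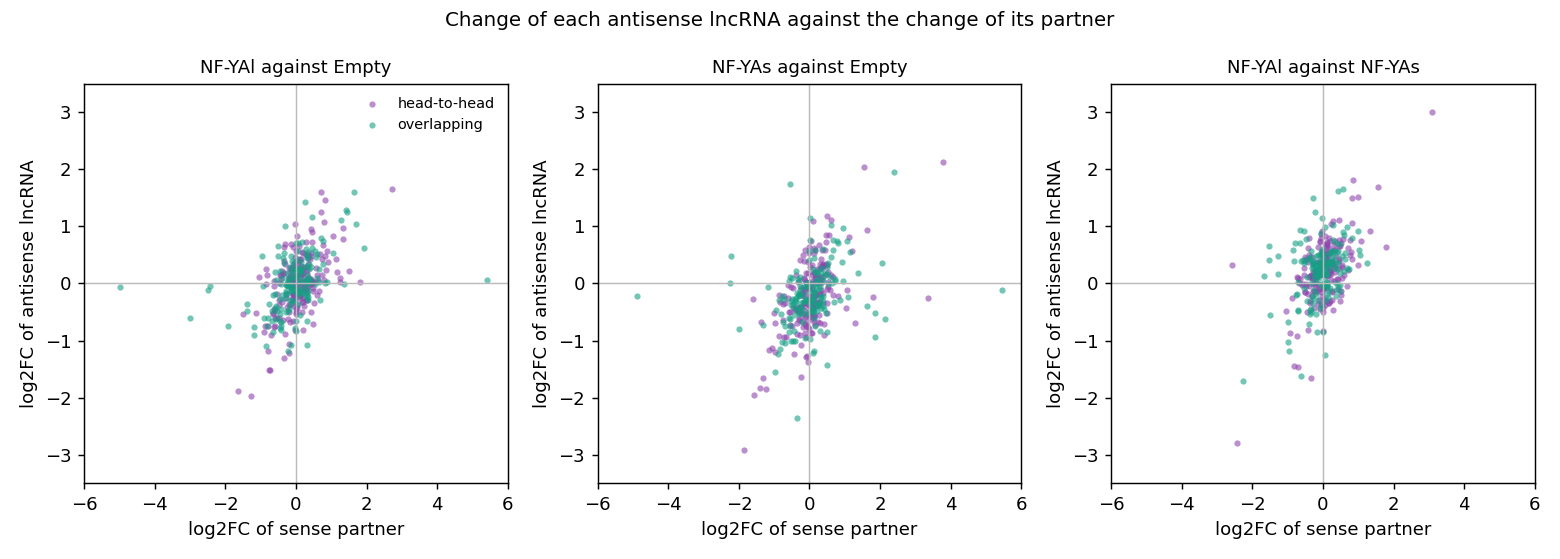
log2FC of each antisense lncRNA (y axis) against that of its sense partner (x axis) in the 3 comparisons, for head-to-head and overlapping pairs. Points spread along the rising diagonal, with r of 0.57 to 0.61 in head-to-head pairs, and a few overlapping pairs lie along the horizontal line at 0, such as PTPRG at 5.40 in NF-YAl.

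The lncRNAs were also grouped by the function of the gene in their name. Over all tested genes, 4.76% were called up and 3.5% down in NF-YAl, and 5.44% up and 3.9% down in NF-YAs. With 15 to 76 lncRNAs in a list, 1 gene moves a share by 6.67% in the smallest list, and the counts are a description. The list of transcription factors covers 36 lncRNAs and is not complete. It leaves out MNX1 and MAFA, whose lncRNAs fell in NF-YAl and in NF-YAs, in that order. Within the list, FEZF1-AS1 and SOX21-AS1 rose in NF-YAl (5.56%) and 0 fell. In NF-YAs FEZF1-AS1 rose (2.78%) and GATA2-AS1, SNAI3-AS1 and ZNF503-AS2 fell (8.33%). Of 76 named for genes of trafficking and metabolism, 1 rose and 4 fell in NF-YAl (1.32 and 5.26%), and 1 rose and 8 fell in NF-YAs (1.32 and 10.5%). SLC2A1-AS1, SLCO4A1-AS1 and PGM5P3-AS1, the last named for a pseudogene and without a matched partner, fell in both. Of 44 named for genes of signalling and channels, 1 rose and 2 fell in NF-YAl (2.27 and 4.55%), namely SEMA3F-AS1 upwards and SLC2A1-AS1 and ARHGAP5-AS1 downwards (for the last, edgeR log2FC -1.21 ± 0.24, adjusted p = 0.0021), and 1 fell in NF-YAs (2.27%). For ARHGAP5-AS1 leaving out Empty C ended the call (log2FC -1.03, adjusted p 0.0136). Of 33 named for genes of RNA and chromatin, 0 were called in NF-YAl (0 by DESeq2), with 10 at an unadjusted edgeR p under 0.05, and ASH1L-AS1 and MRPL23-AS1 were called down in NF-YAs (6.06%). ASH1L-AS1, antisense to a histone methyltransferase gene, was at 8.3, 6.4 and 7.44 CPM in Empty, 7.43, 5.64 and 4.97 CPM in NF-YAl and 3.23, 3.43 and 4.29 CPM in NF-YAs (edgeR log2FC -1.01 ± 0.20, adjusted p = 0.002), and leaving out Empty A, NF-YAs A or NF-YAs B ended the call (log2FC -0.91 to -0.97, adjusted p 0.011 to 0.0126). In the list of cell cycle and DNA repair, with 15 lncRNAs, 1 fell in each line (6.67%), MNX1-AS1 in NF-YAl and TIPARP-AS1 in NF-YAs. The partners of these lncRNAs are a homeobox gene and an ADP-ribosyltransferase gene, so the name of this list does not describe them. Of 16 named for genes of matrix and adhesion 0 were called in NF-YAl by edgeR (0 by DESeq2), with 5 at an unadjusted p under 0.05, and PXN-AS1, 6.25% of the list, rose in NF-YAs (edgeR log2FC 1.02 ± 0.26, adjusted p = 0.0099), where leaving out Empty A, Empty B, Empty C, NF-YAl B, NF-YAs B or NF-YAs C ended the call (log2FC 0.80 to 1.06, adjusted p 0.0132 to 0.0565). The median log2FC in NF-YAs was below 0 in each of these 6 lists, from -0.33 to -0.20, and it was -0.24 over the 201 lncRNAs whose partner is in none.

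CCAAT or ATTGG was searched as these 5 letters on both strands of the 300-base windows of RefSeq (GRCh38.p14), which matched 313 lncRNAs and 326 partners. It was present in 33.2% of the lncRNA windows and 34.7% of the partner windows, beside 35.7% of all 27305 windows. Among lncRNAs called against Empty in either line, 3 of the 10 up-regulated with a window held it, and 11 of the 22 down-regulated. In 78 of 275 pairs the 2 windows overlapped, and in 20 of those both held the same motif, SLC2A1, MNX1, SOX21 and RUSC1 among them. A match of these letters is a description of the window, and binding was not measured here.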

How the data were processed

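Total RNA from PC-3 MTSs was sequenced in 9 libraries, 3 per group, from a kit that keeps strand. The authors aligned reads to human RefSeq transcripts (hg19) with Bowtie2 within RSEM and deposited expected counts and TPM per gene and the percent of a gene's TPM held by each transcript, with 1 file per library. Samples were grouped by the labels. The members and lists used here were chosen with earlier results of these data known.

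The quasi-likelihood test of edgeR 4.0.16, with filterByExpr and TMM, was run on rounded expected counts over 17108 genes and all 9 libraries in 1 fit, with Benjamini-Hochberg adjustment over all tested genes. Calls needed |log2FC| above 1 and adjusted p below 0.01, and the SE of a log2FC was taken from its F statistic. Tested on simulated data for NF-YAl against Empty over 17108 genes, edgeR recovered 200 of 200 genes changed by a fold of 4, with 0 false calls. The changed genes were drawn above a minimum mean CPM, and all genes were given the same spread. The simulation therefore does not bear on low genes, smaller folds or uneven spread. Ratios of lncRNA to partner used log2 TPM with 0.1 added and exact permutation tests. Depth limits low genes. The ± after a log2FC is its SE, and the ± after a ratio or a transcript share is the SD over 3 libraries. Partners were taken by symbol, positions from GENCODE 44 mapped to GRCh37, and promoter windows of 250 bases before to 50 after a start from RefSeq (GRCh38.p14).

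Named genes were the 6 lncRNAs highest in TPM, up to 6 called lncRNAs per comparison and direction by |log2FC| with a mean of at least 1 CPM and groups that did not overlap, their partners, up to 4 pairs per comparison with both genes called, the 3 genes on each side of the count minimum, up to 3 called lncRNAs per list, and NFYA with the markers. Genes named outside this rule are said to be chosen after their values were seen. Alternatives were DESeq2 1.42.0, RLE scaling, other filters and thresholds, 2 groups at a time, a replicate block, an offset for effective length, other pseudocounts and leaving out each library. A marker gene of the line is not reported here.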

Additional observations from a re-analysis of the deposited data

How the results depend on the processing

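With DESeq2, RLE scaling, no filter and the effective length offset, the counts of called lncRNAs, partners and pairs stayed within 1.5 times. An adjusted p under 0.05 gave 15 lncRNAs up and 17 down and 8 pairs in NF-YAl, and 18 higher, 11 lower and 5 pairs between the lines. Without a limit on fold, NF-YAl had 14 lncRNAs up, 23 down, 92 partners and 17 pairs, NF-YAs 42 down, 99 partners and 18 pairs, and the lines differed in 58 partners and 13 pairs. A minimum of 10 counts in every library left 5 pairs in NF-YAs and 1 between the lines. LncRNAs with 20 counts in all 9 libraries gave 5 up and 6 down in NF-YAl, 13 down in NF-YAs and 4 higher between the lines, and a count minimum of 50 gave 276 lncRNAs. Pairs without shared exonic bases were 1, 4 and 1. With only the groups compared, 4 lncRNAs were higher in NF-YAl than in NF-YAs and 10 partners differed. The replicate block gave 5 pairs between the lines. Of 7 pairs of libraries with the same letter, 5 had a residual correlation above 0 and 3 above 0.1 (-0.065 to 0.253), and of 20 with different letters 8 were above 0. Since not every same-letter pair passed 0.1 and the labels do not say what a letter marks, the libraries were treated as unpaired, and a shared source was not tested further. Leaving out 1 library gave 3 to 11 lncRNAs up, 5 to 12 down, 24 to 33 partners and 2 to 6 pairs in NF-YAl, 5 to 8 up, 13 to 26 down, 31 to 37 partners and 6 to 11 pairs in NF-YAs, and 2 to 14 higher, 5 to 8 lower, 8 to 18 partners and 2 to 3 pairs between the lines. The cause of these moves was not tested, beyond the fewer libraries or genes in the fit. Over the named genes, 4090 alternative values kept direction and side of the threshold, 157 lost the call, 16 gained it and 0 reversed. With edgeR and the replicate block, PXN-AS1 in NF-YAs (adjusted p = 0.0122) and PGM5P3-AS1, FRY and DLGAP1 between the lines (0.021, 0.0101 and 0.0307) were no longer called. MELTF-AS1, described without a test above, also left the count of NF-YAl, and 5 values were newly called. With another pseudocount, ratios moved beyond 1 SD in 27 values and within it in 27, and with 1 TPM those of GATA2 and FEZF1 in NF-YAs turned to 0.08 and 0.33 and that of FEZF1 in NF-YAl to 0.50. Genes of few counts, such as FEZF1 in Empty, have values set largely by depth.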
